A study of Mus musculus with 12 samples.

Results

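Leukocyte and macrophage genes were read from poly(A) RNA of kidneys of 12 male C57BL/6J mice, an inbred laboratory strain, which were 60 days old at the start. The mice were injected into the abdominal cavity once a day for 28 days. The Control group (n = 4) received the vehicle alone, saline with 2% Tween 80, which all groups shared. The 10CBD group (n = 4) received 10 mg and the 20CBD group (n = 4) 20 mg of cannabidiol (CBD), a non-intoxicating cannabinoid of hemp, per kg of body weight in that vehicle. Each library came from 1 mouse. The genes were the 10 listed by symbol for leukocytes and macrophages (Ptprc, Cd3e, Cd68, Adgre1, Csf1r, Lyz2, C1qa, C1qb, Cd74 and H2-Ab1) out of 57180 genes in the count files, all 10 were found by Ensembl identifier, and all 10 passed the filter on low counts. The rule named the genes and used no threshold on their values, but they were chosen with earlier results of these data known, and the question was whether the levels of these genes differed between Control, 10CBD and 20CBD.

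The healthy kidney holds a network of resident macrophages between its tubules, together with dendritic cells and smaller numbers of lymphocytes. Macrophages survive on signals through the CSF1 receptor, carry the surface protein F4/80, make the C1q protein that starts the classical complement pathway, and, like dendritic cells, present peptides to T cells on MHC class II molecules. In RNA from whole tissue these genes report immune cells against a large excess of tubule RNA, and fewer cells of a type cannot be told apart from less of its RNA per cell.

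None of the 10 genes was called different between any groups, and in no comparison of 2 groups did the 4 mice of one group lie wholly above or below the 4 of the other. By unadjusted p (0.0440 in edgeR) the nearest to a difference was Cd68, a glycoprotein of lysosomes in macrophages, which was 0.664 times the Control level at 10 mg/kg in the edgeR fit and had an adjusted p of 0.859. Cd74 and H2-Ab1, partners in MHC class II presentation, varied together from mouse to mouse within the groups. C1qa, Cd74 and H2-Ab1 were highest within each group in a library with a low share of mitochondrial reads.

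Libraries held between 15417867 and 23532088 counts on genes. Mitochondrial genes took under 10% of the counts in 4 libraries (Control 2, 10CBD 1, 10CBD 3 and 20CBD 3, between 3.53% and 5.77%) and between 12.8% and 23.4% in the other 8, and the log2 fold changes against Control of all of the 10 genes but Csf1r, and the named correlations between the 10 genes, are also given without these 4 libraries. The tissue label fitted the markers, with mean levels over the 12 libraries of 1420 TPM (transcript counts divided by gene length and scaled to the same total in every library) for Slc34a1, the phosphate transporter of the proximal tubule, 592 TPM for Umod, the uromodulin of the thick limb, and 50.5 TPM for Aqp2, the water channel of the collecting duct. Each group was measured in 4 mice from tissue scrapes, and the part of the kidney scraped is not given in the sources used here.

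The DNA just before 3 of the genes is shown because they belong to the pairs whose joint variation is described further on, and no stretch is shown for Cd74. Sequences are the 250 bases before the start of the canonical transcript in GRCm39 (GENCODE vM39), 5′ to 3′ along the strand of the gene. They are C1qa (chr4:136626162-136626411, minus strand), C1qb (chr4:136613512-136613761, minus strand) and H2-Ab1 (chr17:34481933-34482182, plus strand, at a start within the annotated span of the gene). Capitals mark GAGGAA, the purine core that the myeloid factor PU.1 can bind, and ATTGG, the inverted CCAAT box that forms the Y box of class II promoters, each on either strand, so that TTCCTC and CCAAT are the same motifs read from the other side.
C1qa: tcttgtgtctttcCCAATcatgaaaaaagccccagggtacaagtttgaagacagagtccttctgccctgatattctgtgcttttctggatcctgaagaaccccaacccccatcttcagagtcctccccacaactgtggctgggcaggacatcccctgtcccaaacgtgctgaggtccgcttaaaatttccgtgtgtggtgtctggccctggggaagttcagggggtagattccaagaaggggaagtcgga
C1qb: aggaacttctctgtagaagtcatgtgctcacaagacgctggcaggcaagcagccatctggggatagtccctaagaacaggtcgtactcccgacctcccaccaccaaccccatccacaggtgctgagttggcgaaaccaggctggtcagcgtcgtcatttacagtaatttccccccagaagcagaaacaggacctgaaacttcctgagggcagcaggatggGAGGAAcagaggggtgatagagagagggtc
H2-Ab1: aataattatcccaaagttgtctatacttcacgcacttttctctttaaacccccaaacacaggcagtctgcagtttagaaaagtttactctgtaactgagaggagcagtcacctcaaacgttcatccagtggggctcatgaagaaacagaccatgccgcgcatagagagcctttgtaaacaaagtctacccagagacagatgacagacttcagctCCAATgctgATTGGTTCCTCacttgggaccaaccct
In the stretch of H2-Ab1 an ATTGG stands directly before a TTCCTC, and a CCAAT lies just upstream. C1qb holds 1 GAGGAA, 30 bases before its start, and C1qa holds none but 1 CCAAT, 237 bases before its start. GAGGAA was present in 8 of the 10 genes (in all but C1qa and Cd74) and in 22.9% of 21757 promoters of protein-coding genes of the same length. ATTGG was present in 5 of 10 (Cd68, Csf1r, C1qa, Cd74 and H2-Ab1) and in 36.5% of the promoters. No site of either motif overlapped one of the other, and a match describes letters, not binding. C1qa and C1qb lie 9.71 kb apart on chromosome 4 with C1qc, the gene of the remaining chain, between them.

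Per length, the genes spanned a wide range of levels in the kidney. Cd74, the invariant chain that guides MHC class II molecules, had the highest level, 151 ± 42.2 TPM (SD, n = 12 libraries), above 96.5% of the genes tested. H2-Ab1, the beta chain of the class II molecule I-A, followed at 88.3 ± 24 TPM. C1qa, the A chain of C1q, stood at 33 ± 14.7 TPM, and Csf1r, the receptor for the macrophage growth factors CSF1 and IL-34, at 15.3 ± 2.93 TPM. Lyz2, the lysozyme of myeloid cells, had 11.7 ± 1.9 TPM. Below it were Cd68 at 4.96 ± 1.4 TPM, C1qb at 4.41 ± 0.826 TPM and Adgre1, which encodes F4/80, at 2.36 ± 0.548 TPM. Ptprc, the CD45 phosphatase on all leukocytes, reached 1.64 ± 0.295 TPM, and Cd3e, a chain of the T cell receptor complex, 0.357 ± 0.13 TPM, above only 3.56% of the genes tested. The gene above was higher in all 12 libraries for 5 of the 9 neighbouring pairs in this order, in 11 of 12 for Csf1r over Lyz2, C1qb over Adgre1 and Adgre1 over Ptprc, and in only 8 of 12 for Cd68 over C1qb, which did not differ beyond their spread. The annotated exons of C1qb add up to 6246 bases against 1610 for C1qa, which lowers the level of C1qb per length. Those of Ptprc add up to 18764 bases, the most of the 10 genes, which lowers its level per length in the same way. By counts relative to library size alone (CPM), Ptprc had a mean of 10.9. That was above C1qb (9.72), Adgre1 (2.96) and Cd68 (2.42) and below Lyz2 (13.8).

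Ptprc and Cd3e stand for leukocytes in general and for T cells. Levels between libraries are given as CPM, counts relative to the TMM-normalized library size, with replicates 1 to 4 in order, and gene positions are in GRCm39 (GENCODE vM39). Ptprc (ENSMUSG00000026395, chr1:137990599-138103446, minus strand) had 10.8, 10.0, 11.2 and 12.8 CPM in Control, 12.7, 11.8, 8.99 and 11.3 CPM in 10CBD, and 10.48, 12.7, 10.6 and 7.34 CPM in 20CBD. The lowest value lay in 20CBD 4 and the highest in Control 4, and the 3 groups overlapped. The log2 fold change was -0.0020 (95% interval -0.36 to 0.36) for 10CBD against Control and -0.13 (-0.49 to 0.24) for 20CBD against Control. Cd3e (ENSMUSG00000032093, chr9:44910037-44920925, minus strand) rested on 4 to 15 counts per library. It had 0.504, 0.191, 0.554 and 0.381 CPM in Control, 0.663, 0.792, 0.587 and 0.352 CPM in 10CBD, and 0.469, 0.838, 0.660 and 0.282 CPM in 20CBD. In each CBD group 3 of 4 mice lay above the median of Control and 1 below it. Its log2 fold changes of 0.54 (-0.37 to 1.45) and 0.45 (-0.48 to 1.38) had the widest intervals of the 10 genes, and at this depth they covered both no difference and more than a doubling. The log2 fold changes without the 4 libraries of low mitochondrial share were -0.0083 and -0.19 for Ptprc and 0.22 and 0.13 for Cd3e.

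Adgre1, Csf1r, Cd68 and Lyz2 mark macrophages and related myeloid cells. Csf1r (ENSMUSG00000024621, chr18:61229714-61266535, plus strand) had 46.5, 40.7, 34.3 and 35.8 CPM in Control, 44.0, 43.4, 38.6 and 42.2 CPM in 10CBD, and 32.5, 36.8, 38.9 and 40.5 CPM in 20CBD. All 4 mice of 20CBD lay below the median of 10CBD, and Control overlapped both groups. The log2 fold change of 20CBD against 10CBD was -0.18 (-0.44 to 0.080), with p = 0.0857 in an exact two-sided permutation test whose smallest possible p is 0.0286 and an adjusted p of 0.856 in edgeR. Csf1r had the narrowest intervals against Control, from 0.893 to 1.28 times the Control level at 10 mg/kg and from 0.789 to 1.13 times at 20 mg/kg.

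Cd68 (ENSMUSG00000018774, chr11:69555037-69557067, minus strand) had 3.11, 2.39, 2.22 and 3.48 CPM in Control, 1.24, 1.98, 1.63 and 2.64 CPM in 10CBD, and 3.16, 2.57, 1.80 and 2.82 CPM in 20CBD. All 4 mice of 10CBD lay below the median of Control, with 10CBD 4 inside the Control range. For 10CBD against Control the log2 fold change was -0.59 ± 0.27 (SE), with an unadjusted p of 0.0440 and an adjusted p of 0.859 in edgeR and p = 0.0857 in the exact permutation test. Without the 4 libraries of low mitochondrial share, in each of which Cd68 was below the mean of the rest of its group, the log2 fold change was -0.34. For 20CBD against Control it was -0.11 (-0.67 to 0.45), and -0.038 without those libraries. For 20CBD against 10CBD it was 0.48 (-0.099 to 1.06), and 0.30 without them.

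Adgre1 (ENSMUSG00000004730, chr17:57665573-57790527, plus strand) had 3.53, 2.81, 2.87 and 2.50 CPM in Control, 2.83, 2.64, 1.81 and 3.93 CPM in 10CBD, and 4.39, 2.22, 2.40 and 3.56 CPM in 20CBD. Lyz2 (ENSMUSG00000069516, chr10:117111557-117118346, minus strand), whose reads may be shared with its close copy Lyz1, had 12.2, 13.5, 15.3 and 14.7 CPM in Control, 11.2, 15.44, 9.58 and 18.8 CPM in 10CBD, and 13, 17.4, 12.4 and 12.7 CPM in 20CBD. In 10CBD both genes had mice above and below the whole Control range, as Adgre1 had in 20CBD, while Lyz2 in 20CBD left that range only in replicate 2, which was higher. Whether the groups differed in spread was not tested. Log2 fold changes against Control were -0.073 (-0.65 to 0.50) and 0.099 (-0.47 to 0.67) for Adgre1 at 10 and 20 mg/kg. For Lyz2 they were -0.020 (-0.43 to 0.39) and -0.0032 (-0.42 to 0.41). When the 4 libraries of low mitochondrial share were left out, they were 0.14 and 0.19 for Adgre1 and 0.29 and 0.035 for Lyz2.

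**Figure D1:**
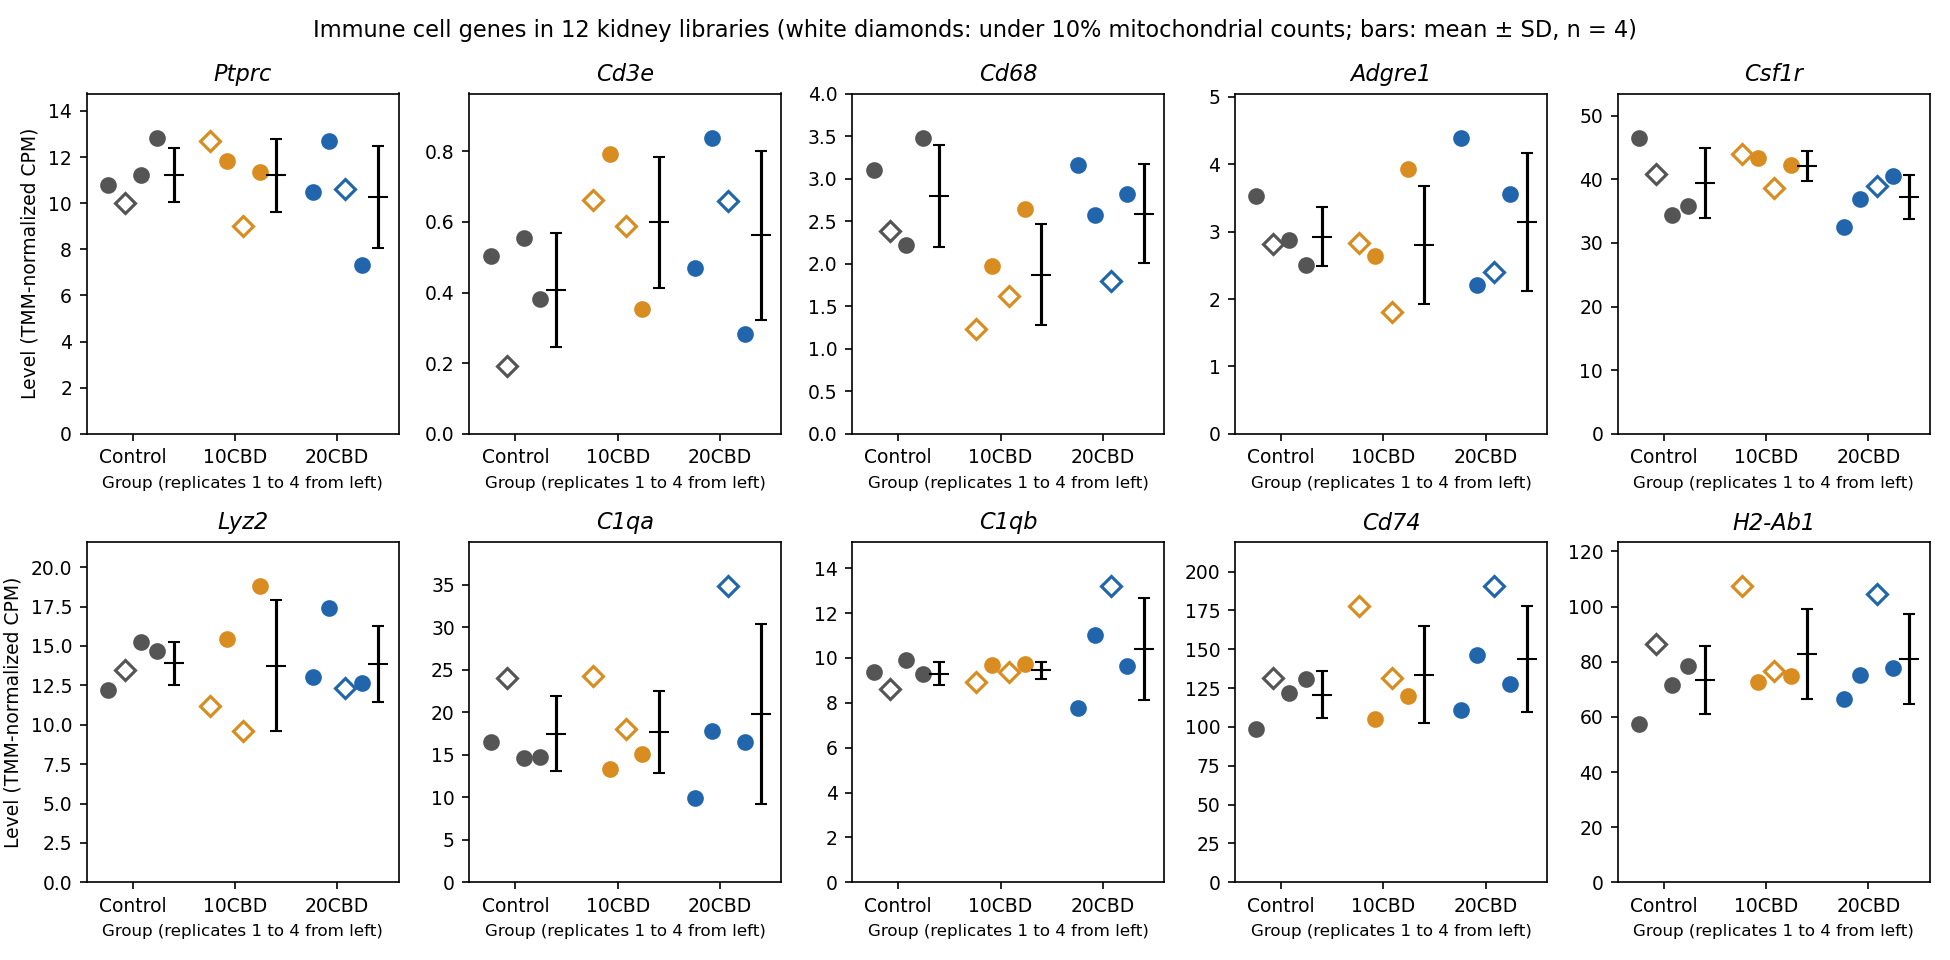
Level of each gene in each of the 12 libraries (vertical axes, TMM-normalized CPM from 0) by group, replicates 1 to 4 from left to right, with the group mean and SD (n = 4) as a black bar. White diamonds are the 4 libraries with under 10% mitochondrial counts, which hold the highest value of their group for C1qa, Cd74 and H2-Ab1, and in no gene do the points of any pair of groups separate.

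C1qa and C1qb encode chains of one protein. C1qa (ENSMUSG00000036887, chr4:136623223-136626161, minus strand) had 16.6, 24.0, 14.7 and 14.7 CPM in Control, 24.3, 13.3, 18.0 and 15.0 CPM in 10CBD, and 9.96, 17.8, 34.8 and 16.5 CPM in 20CBD. The highest and the lowest of all 12 values both lay in 20CBD, in replicates 3 and 1, and the 4 libraries of low mitochondrial share held the 4 highest values (25.3 ± 6.97 CPM, SD, n = 4, against 14.8 ± 2.42 CPM in the other 8). The part of this share in the level of C1qa was not tested beyond leaving these libraries out. C1qb (ENSMUSG00000036905, chr4:136606009-136613511, minus strand) had 9.37, 8.63, 9.92 and 9.30 CPM in Control, 8.93, 9.70, 9.40 and 9.74 CPM in 10CBD, and 7.79, 11.02, 13.2 and 9.66 CPM in 20CBD. Here Control and 10CBD lay close together, and 20CBD extended beyond both, below in replicate 1 and above in replicates 2 and 3. The lowest and the highest values again lay in replicates 1 and 3.

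The log2 fold change of C1qa was 0.018 (-0.63 to 0.66) for 10CBD and 0.18 (-0.47 to 0.82) for 20CBD against Control. Without the 4 libraries of low mitochondrial share these values were -0.11 and -0.051. For C1qb they were 0.020 (-0.31 to 0.35) and 0.16 (-0.17 to 0.49) with all libraries, and 0.026 and -0.0050 without those 4. Adjusted p-values of both genes in edgeR were 0.846 or above in these comparisons.

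Cd74 and H2-Ab1 act in the presentation of peptides by MHC class II molecules. Cd74 (ENSMUSG00000024610, chr18:60936899-60945731, plus strand) had 98.9, 132, 122 and 131 CPM in Control, 178, 105, 131 and 120.1 CPM in 10CBD, and 111, 146, 190.5 and 128 CPM in 20CBD. The 2 highest values, in 10CBD 1 and 20CBD 3, came from libraries of low mitochondrial share, and each group had at least 1 mouse between 127 and 132 CPM. H2-Ab1 (ENSMUSG00000073421, chr17:34476663-34488393, plus strand) had 57.3, 86.4, 71.7 and 78.6 CPM in Control, 107, 72.5, 76.8 and 74.7 CPM in 10CBD, and 66.3, 75.3, 104 and 77.7 CPM in 20CBD. The same 2 libraries stood above the rest.

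Cd74 had the lowest adjusted p of the 10 genes for 20CBD against Control, 0.782 in edgeR, with a log2 fold change of 0.25 (-0.14 to 0.64), and it was 0.15 (-0.25 to 0.54) for 10CBD. Without the libraries of low mitochondrial share the values were 0.13 for 20CBD and -0.060 for 10CBD. H2-Ab1 had log2 fold changes of 0.17 (-0.19 to 0.54) for 10CBD and 0.14 (-0.23 to 0.51) for 20CBD against Control, and 0.086 and 0.082 without those libraries.

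Over the whole list, 10CBD against Control gave 0 called genes of 10 at an adjusted p under 0.1 in edgeR, where 0.0291% of all 17163 genes tested were called, and 1 of 10 (Cd68) at an unadjusted p under 0.05, against 5.67% of all genes. DESeq2 and limma-voom also called 0 of 10. Groups that did not overlap occurred in 0 of 10 and in 3.19% of all genes. The median log2 fold change of the 10 genes was 0.019, beside 0.012 for all genes, with 6 higher and 4 lower, and it was 0.056 without the libraries of low mitochondrial share. Leaving out 1 library put it between -0.0018 (without 10CBD 1) and 0.11 (without 10CBD 3).

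For 20CBD against Control, edgeR and limma-voom called 0 of 10 genes and DESeq2 called 0 of the 9 to which it gave an adjusted p (all but Cd3e), where edgeR called 0.303% of all genes, and 0 of 10 had an unadjusted p under 0.05 in edgeR against 8.45% of all genes. Groups did not overlap in 0 of 10 and in 5.3% of all genes. The median log2 fold change was 0.12, beside 0.015 for all genes, and 0.015 without the libraries of low mitochondrial share. It was 0.027 without 20CBD 3 and 0.066 without Control 4. The 10CBD and 20CBD groups were compared with the same 4 control mice, so the 2 comparisons are not independent.

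Between the doses, 20CBD against 10CBD, 0 of 10 genes were called by edgeR or limma-voom and 0 of the 9 with an adjusted p by DESeq2, where edgeR called 0.0% of all genes, and 0 of 10 had an unadjusted p under 0.05 against 6.31%. Groups did not overlap in 0 of 10 and in 3.1% of all genes, and the median log2 fold change was 0.060 beside -0.0033 for all genes. It was -0.10 without 20CBD 3, the library with the highest C1qa, C1qb and Cd74, -0.031 without 10CBD 3, 0.12 without either 10CBD 1 or 20CBD 4, and -0.018 without the 4 libraries of low mitochondrial share. The mean of both doses against Control likewise gave 0 called genes of 10 by edgeR and limma-voom and of 9 by DESeq2, where edgeR called 0.14% of all genes, 0 with groups that did not overlap, where 0.862% of all genes had such groups, 0 with an unadjusted p under 0.05, where 7.04% of all genes had one, and a median log2 fold change of 0.052. Leaving out 1 library put that median between 0.017 (without 20CBD 3) and 0.092 (without 10CBD 3).

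**Figure D2:**
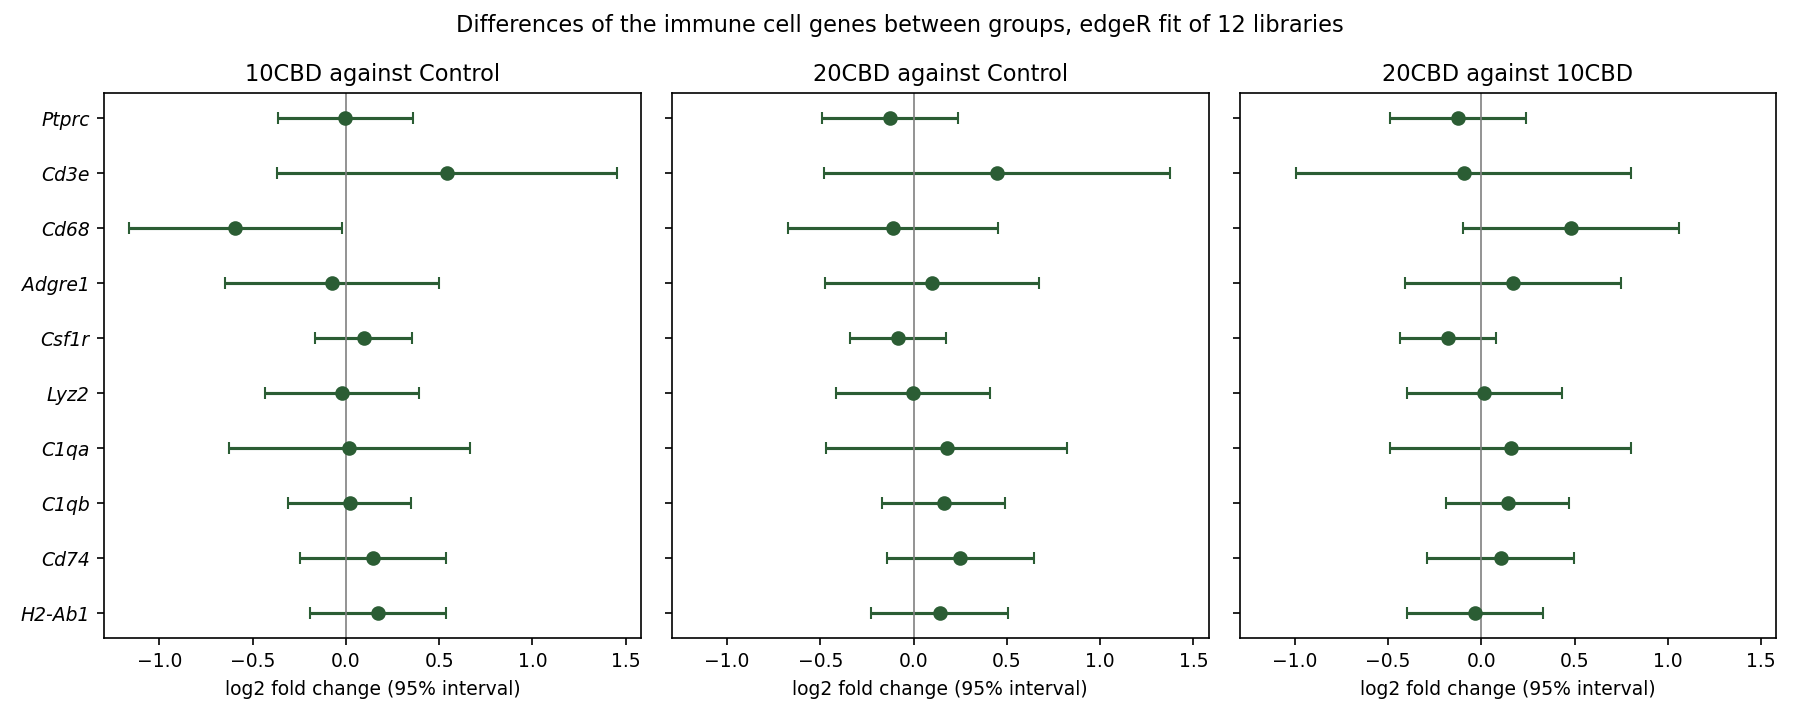
Log2 fold change of each gene (horizontal axes) with its 95% interval from the edgeR fit of 12 libraries, for each comparison of 2 groups. Every interval includes 0 except that of Cd68 for 10CBD against Control (-1.16 to -0.018), whose adjusted p was 0.859, and Cd3e has the widest intervals.

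Whether the genes varied together from mouse to mouse was examined with the group means removed, over 12 libraries, for 4 pairs chosen by function. Cd74 and H2-Ab1 varied together with Pearson's r of 0.939 (permutation p within groups 0.00048, adjusted over the 4 pairs 0.00192) and Spearman's rho of 0.923 (permutation p 0.00078, adjusted 0.00312). Without the 2 libraries farthest from the median of Cd74 r was 0.851, and within the 8 libraries of higher mitochondrial share it was 0.863 (permutation p 0.0420, adjusted 0.168) with rho 0.714. The 4 libraries of low share are too few for a value of their own.

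C1qa and C1qb had r of 0.616 (permutation p 0.183, adjusted 0.244) and rho of 0.119 (permutation p 0.789, adjusted 0.789). Without 20CBD 1 and 20CBD 3, the 2 libraries farthest from the median of C1qa, r was -0.66. Within the 8 libraries of higher mitochondrial share, which hold 20CBD 1 but not 20CBD 3, r was 0.892 (permutation p 0.0841, adjusted 0.168) and rho 0.595. The pair of chains therefore did not pass the test over all 12 libraries, in contrast to the class II pair. Within the 8 libraries neither pair passed it after adjustment (adjusted permutation p of 0.168 for each). The difference between the pairs was not tested.

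Ptprc and Cd3e had r of 0.612 (permutation p 0.0647, adjusted 0.129) and rho of 0.49 (permutation p 0.162, adjusted 0.325), with r of 0.555 without the 2 libraries farthest from the median of Ptprc and 0.673 within the 8 libraries of higher share. Adgre1 and Csf1r had r of 0.154 (permutation p 0.619, adjusted 0.619) and rho of 0.133 (permutation p 0.693, adjusted 0.789). Without 10CBD 4 and 20CBD 1 their r was 0.601, and within the 8 libraries of higher share it was 0.0789. These macrophage receptors did not vary together over all 12 libraries beyond what the permutations gave.

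**Figure D3:**
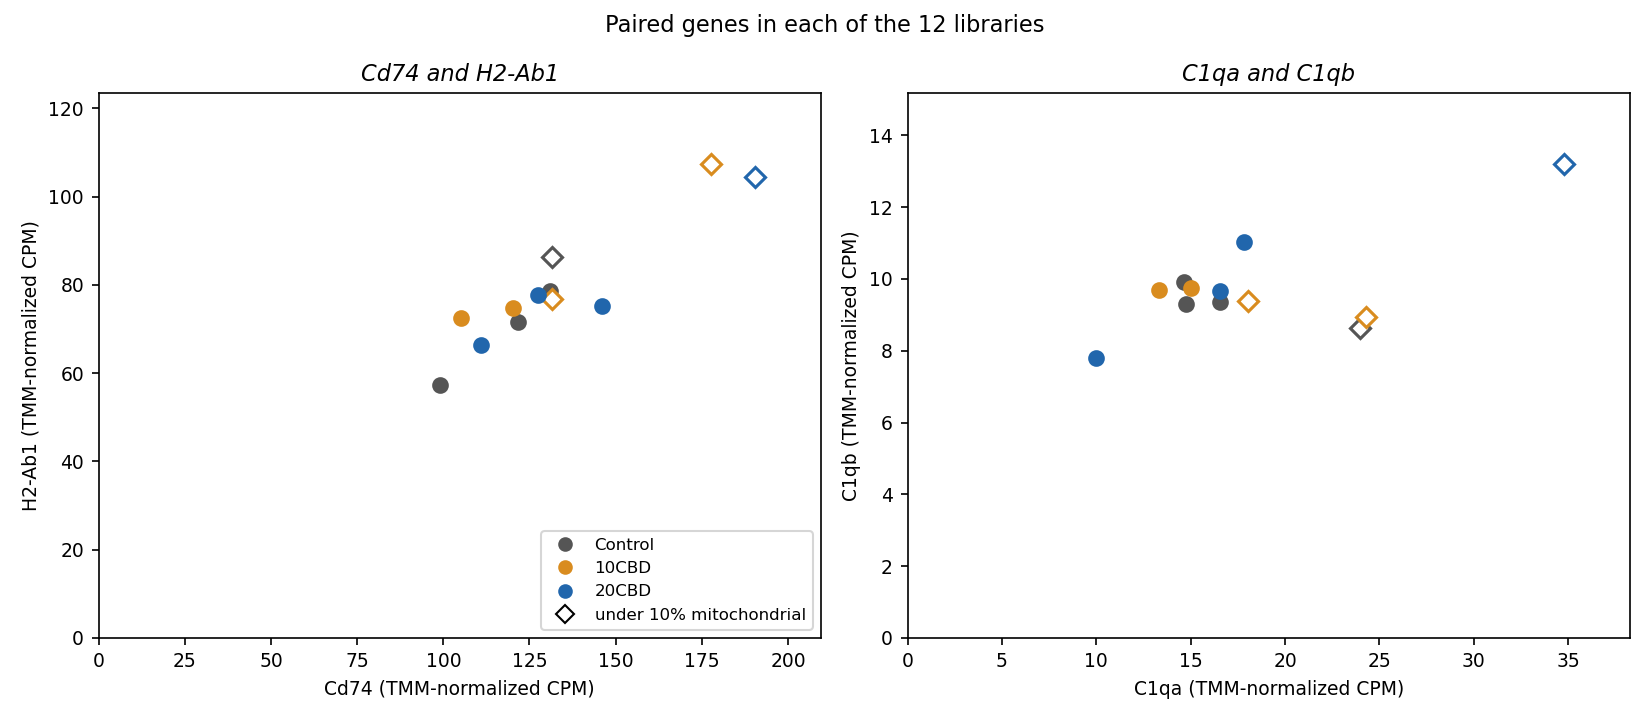
Level of Cd74 against H2-Ab1 (left) and of C1qa against C1qb (right) in each of the 12 libraries, in TMM-normalized CPM on both axes, coloured by group, with the 4 libraries of under 10% mitochondrial counts as white diamonds. H2-Ab1 follows Cd74 across the whole range, while C1qb stays between 7.79 and 13.2 CPM as C1qa runs from 9.96 to 34.8 CPM.

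Across all 45 pairs of the 10 genes the median r was 0.022, with 6 pairs over 0.5 and 21 below 0, over 12 libraries that share depth, composition and mitochondrial share. C1qa had r of 0.84 with Cd74 and 0.81 with H2-Ab1, and Cd68 had -0.74 with both C1qa and Cd74 and -0.71 with H2-Ab1. Within the 8 libraries of higher mitochondrial share, C1qa had only 0.50 with Cd74 and 0.26 with H2-Ab1, and Cd68 had -0.18, -0.088 and -0.083 with C1qa, Cd74 and H2-Ab1, so these values rested largely on the 4 libraries of low share. Adgre1 had -0.48, -0.51 and -0.39 with C1qa, Cd74 and H2-Ab1 over 12 libraries, and -0.47, -0.63 and -0.53 within those 8. Over those 8 libraries the median r of the 45 pairs was 0.045. These values are descriptions, and the libraries of low mitochondrial share had high C1qa, Cd74 and H2-Ab1 and low Cd68 in the same mice.

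**Figure D4:**
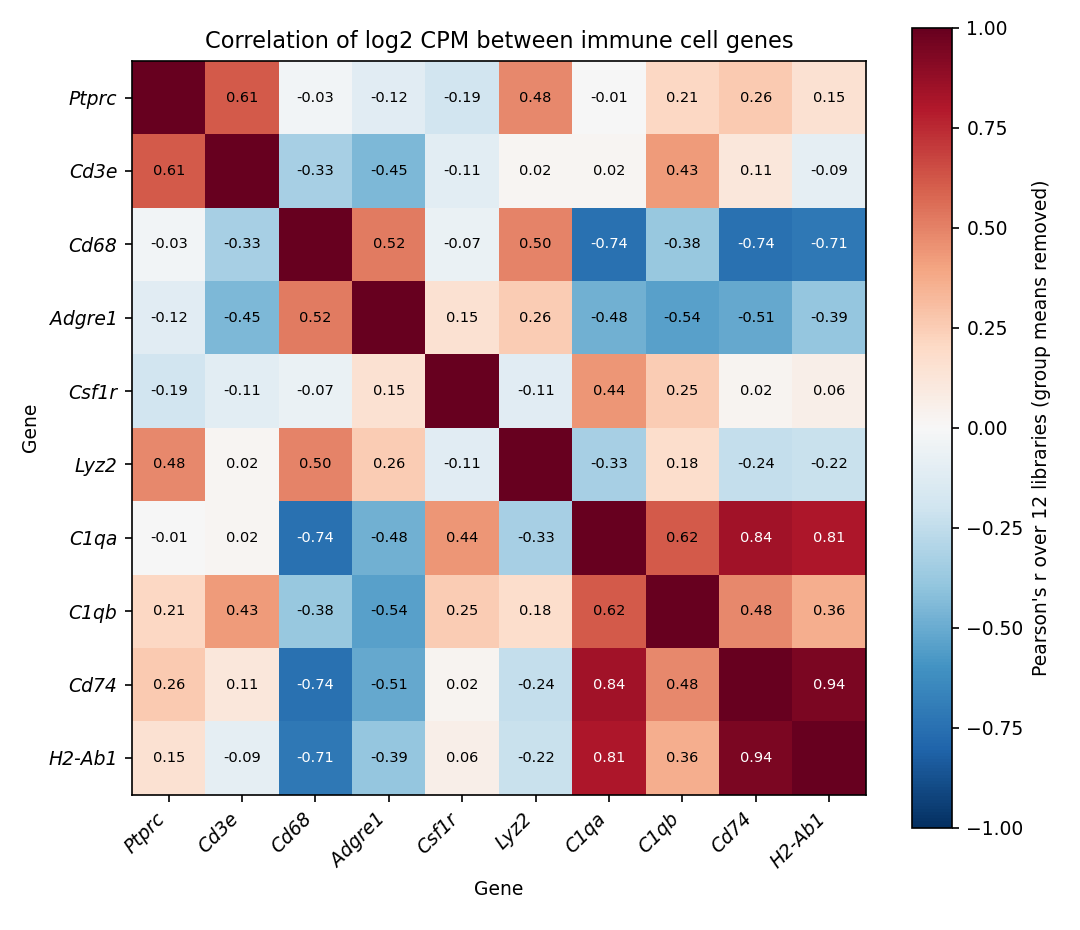
Pearson's r between the log2 CPM of each pair of genes over 12 libraries with group means removed, from -1 (blue) to 1 (red), with the value in each square. C1qa, Cd74 and H2-Ab1 form a block with values of 0.81 to 0.94, against which Cd68 and Adgre1 are negative. Without the 4 libraries of low mitochondrial share, C1qa had 0.50 with Cd74 and 0.26 with H2-Ab1, and Cd68 had -0.18 to -0.083 with the 3 genes. Adgre1 stayed negative there, with -0.63 to -0.47.

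Among the other genes tested, those most like the mean of Cd74 and H2-Ab1 over the 12 libraries (group means removed) were Nudc (r of 0.956), Fdxacb1 (0.948), H2-Eb1 (0.944), 2310033P09Rik (0.938) and Brd3 (0.937). H2-Eb1, the beta chain of the class II molecule I-E, was the only one of the 5 on a list of immune genes. For the mean of the 6 myeloid genes the most alike were 4933424G05Rik (0.892), Klrk1 (0.891), AU021092 (0.885), Ephb2 (0.885) and 1810019D21Rik (0.872). The 6 genes themselves had r of only 0.199 (C1qa) to 0.653 (Csf1r) with their own mean, so that this mean stands for none of them well.

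Of 111 further immune genes on 9 lists, 86 passed the filter on low counts. In edgeR 0 of 86 were called for 10CBD against Control, 20CBD against Control, 20CBD against 10CBD and the mean of both doses, and 8, 10, 12 and 9 (9.3%, 11.6%, 14% and 10.5%) had an unadjusted p under 0.05, beside 5.67%, 8.45%, 6.31% and 7.04% of all genes. DESeq2 gave an adjusted p for 86, 82, 52 and 75 of them and called 1 (Cxcr4), 2 (C3 and Cfb), 0 and 3 (C3, Ccl28 and Cxcr4), and limma-voom called 0. Over all genes DESeq2 called 34, 167, 13 and 117 in the same order. How many of all genes had an adjusted p in DESeq2 is not given here, so the counts cannot be compared as shares. Median log2 fold changes over the 86 genes were -0.025 for 10CBD against Control, 0.17 for 20CBD against Control and 0.17 for 20CBD against 10CBD.

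The macrophage list, with 12 of 15 genes tested, had median log2 fold changes of 0.013 and 0.14 at 10 and 20 mg/kg. Mertk, a receptor for the uptake of dead cells, had mean levels of 59.7, 64.2 and 68.4 CPM in Control, 10CBD and 20CBD, with ranges that overlapped. Ctss, a protease of antigen-presenting cells, had 21.6, 25.1 and 22.9 CPM. C1qc, the remaining chain of C1q, had 6.15, 5.54 and 6.35 CPM.

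For MHC class II presentation, 9 of 10 genes were tested, and median log2 fold changes were 0.040 and 0.055. H2-Eb1 had 64.4, 69.5 and 72.7 CPM and H2-Aa, the alpha chain that pairs with the product of H2-Ab1, 49.95, 48.1 and 52.4 CPM. Lgmn and Ctsl, proteases of endosomes that tubule cells also express, had the highest levels of the list, with 577, 693 and 572 CPM for Lgmn and 492, 505 and 479 CPM for Ctsl.

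The general leukocyte list (12 of 12 tested) had medians of -0.090 and 0.10, and its most abundant genes were Lcp1 with 25.4, 23.0 and 24.9 CPM, Hcls1 with 12.0, 14.1 and 13.3 CPM and Laptm5 with 8.79, 9.003 and 10.1 CPM. Monocyte and neutrophil genes (8 of 12) had medians of 0.10 and -0.042. Among them Plac8 was higher in all 4 mice of each CBD group than in all control mice, with 4.13 to 4.68 CPM in Control, 4.75 to 7.73 CPM in 10CBD and 5.33 to 6.42 CPM in 20CBD, and adjusted p-values in edgeR of 0.796 and 0.520. Its log2 fold changes were 0.56 and 0.42, and 0.35 and 0.41 without the 4 libraries of low mitochondrial share. Ace, which tubule brush borders also carry, had means of 164, 169.9 and 157 CPM, and Nr4a1 had 11.1, 6.27 and 8.25 CPM. Dendritic cell genes (10 of 10) had medians of -0.056 and 0.15, with Irf8 at 14.1, 12.9 and 16.2 CPM, Zbtb46 at 8.97, 10.5 and 10.1 CPM and Clec9a at 2.61, 2.39 and 2.79 CPM.

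T and NK cell genes (9 of 17 tested) had medians of 0.041 and 0.42. Lck, Trac and Cd3g, which act in or beside the T cell receptor, had 1.04, 1.65 and 1.35 CPM, 1.01, 1.04 and 1.37 CPM, and 0.879, 0.882 and 1.18 CPM in the 3 groups. B and plasma cell genes (6 of 10) had medians of 0.040 and 0.82. Igkc, the constant part of the kappa light chain, varied from 3.39 to 24.8 CPM in Control, from 6.202 to 28.5 CPM in 10CBD and from 8.07 to 34.5 CPM in 20CBD. Ighm had 5.46, 5.11 and 12.4 CPM and Jchain 2.14, 2.49 and 4.31 CPM, with groups that overlapped.

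Among ligands and chemokines (11 of 15 tested, with Csf2 at 0 counts in all libraries) the medians were 0.12 and 0.41. Csf1 and Il34, the ligands of the receptor encoded by Csf1r, had 4.77, 5.30 and 6.23 CPM and 3.42, 4.22 and 4.82 CPM, with adjusted p-values for 20CBD against Control of 0.597 and 0.600 in edgeR. Cxcl12, a chemokine of stromal cells, had 70.6 to 89.1 CPM in Control, 69.4 to 112 CPM in 10CBD and 101 to 166 CPM in 20CBD, all 4 above Control, with a log2 fold change of 0.62 ± 0.18 (SE) and an adjusted p of 0.337 in edgeR. Both values changed to 0.65 ± 0.14 (SE) and an adjusted p of 0.0634 in edgeR without the 4 libraries of low mitochondrial share. Cx3cl1 had 46.3, 43.1 and 46.9 CPM and Tgfb1 7.25, 7.90 and 9.61 CPM. Complement genes other than C1q (9 of 10) had medians of -0.22 and 0.17, with Serping1 at 49.4, 44.5 and 60.8 CPM and C3 at 42.8, 22.2 and 21.3 CPM. C3 had adjusted p-values of 0.800 and 0.356 in edgeR and 0.0945 in DESeq2 for 20CBD against Control. The groups overlapped for C3, with 40.8, 38.2, 19.6 and 72.8 CPM in Control. It ran from 13.9 to 27.7 CPM in 10CBD and from 16.1 to 25.8 CPM in 20CBD.

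**Figure D5:**
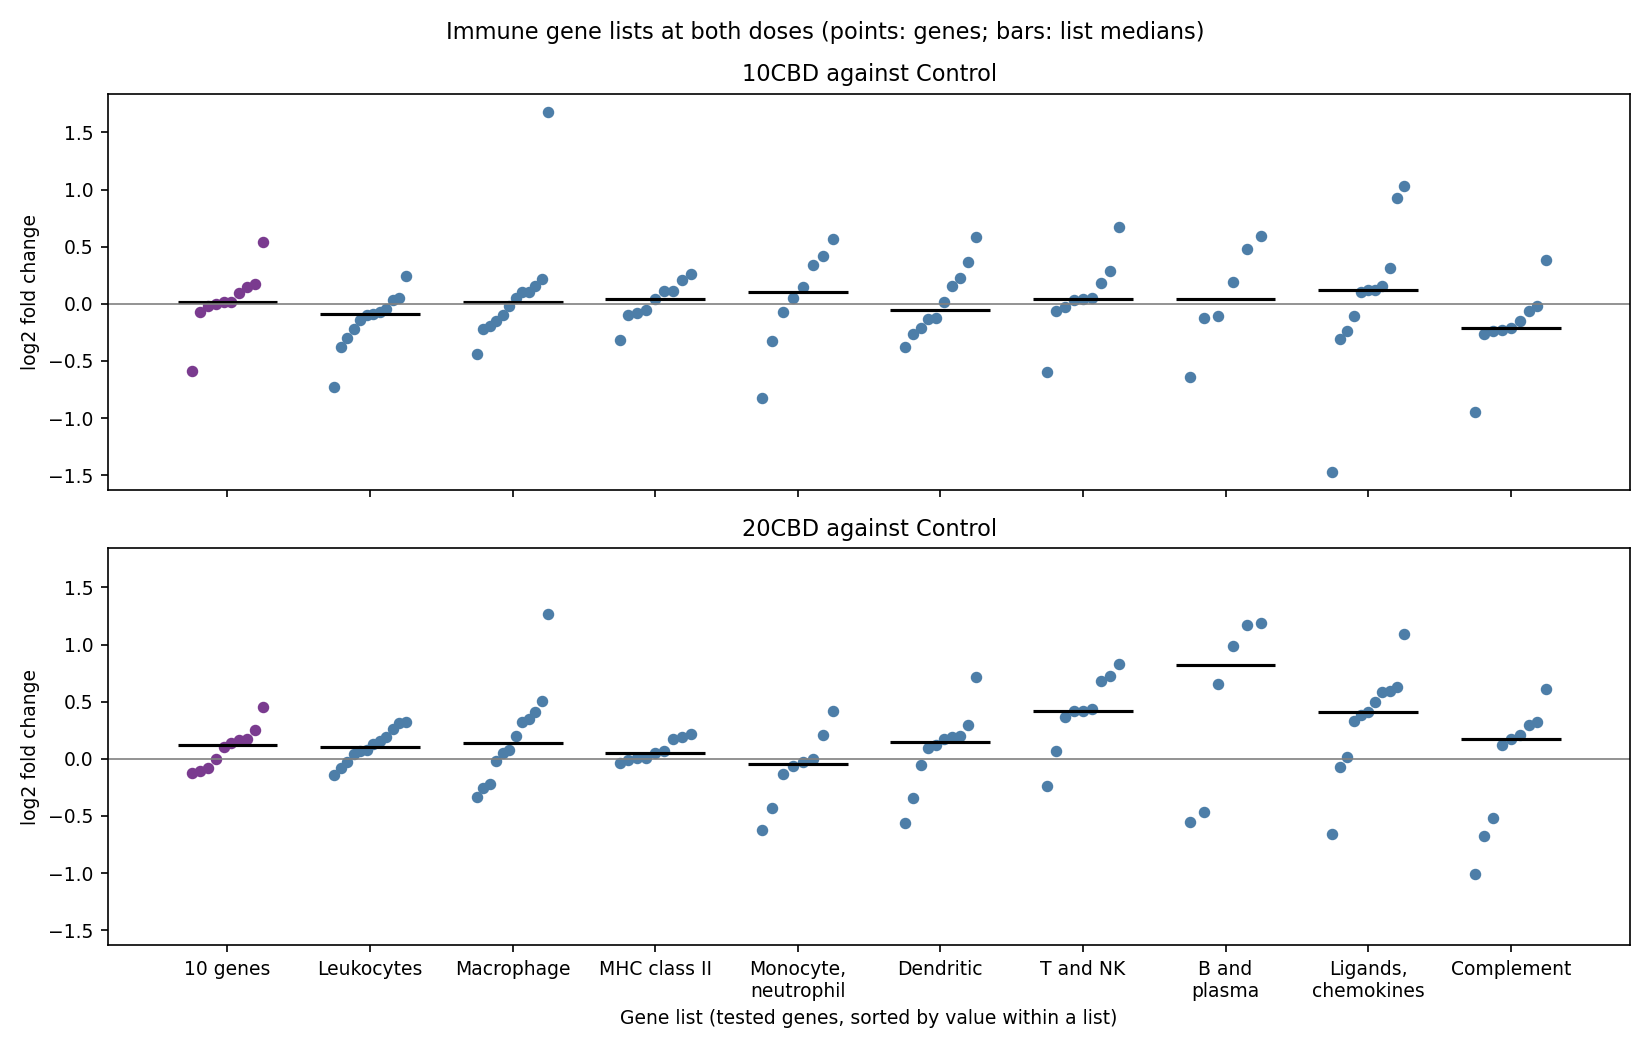
Log2 fold change (vertical axes) of each tested gene of the 10 genes and of 9 related immune lists, for 10CBD (top) and 20CBD (bottom) against Control, with list medians as black bars. The 10 genes lie between -0.59 and 0.54 at 10 mg/kg and between -0.13 and 0.45 at 20 mg/kg, and the median of the B and plasma cell list is the highest at 20 mg/kg (0.82, none of 6 genes called).

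Groups did not overlap for 5 of the 86 genes (5.81%, beside 3.19% of all genes) in 10CBD against Control, with Ccl28, Cxcr4 and Plac8 higher and Fcer1g and Il1b lower. In 20CBD against Control they were also 5 (5.81%, beside 5.3%), with C3ar1, Cxcl12, Cxcr4 and Plac8 higher and Cfb lower. In 20CBD against 10CBD they were 3 (3.49%, beside 3.1%), with C1s1, C2 and Siglech higher. Of the 9 lists for other cells of the kidney and nearby tissue, 1 gene was called in edgeR, for 20CBD against Control. It was Slc5a2, the glucose transporter of the proximal tubule and 1 of the 8 proximal tubule genes tested. In that comparison 0.303% of all genes were called. Slc5a2 had 197 to 236 CPM in Control and 131 to 162 CPM in 20CBD (adjusted p of 0.0820 in edgeR). The summed level of the 8 proximal tubule markers was 8027 to 9721 CPM in Control, 7355 to 8928 CPM in 10CBD and 6576 to 7592 CPM in 20CBD, and its part in the levels of the immune genes was not tested. Median log2 fold changes at 10 and 20 mg/kg were -0.16 and -0.24 for the proximal tubule, 0.038 and -0.15 for the thick limb and distal tubule, 0.12 and 0.032 for the collecting duct, -0.12 and 0.13 for podocytes, 0.012 and 0.12 for endothelium, 0.031 and 0.16 for stroma and -0.45 and -0.077 for blood. The 5 tested adipocyte genes had medians of -1.68 and -3.02, and the summed level of all 6 listed adipocyte genes was 95.1 to 226 CPM in Control, 68.2 to 122 CPM in 10CBD and 68.2 to 113 CPM in 20CBD. Most of that sum was Fabp4, with means of 149, 88.9 and 89.2 CPM and log2 fold changes of only -0.75 and -0.74. The 1 tested gene of the adrenal cortex list, Star, had -0.23 and -0.17. Fat also holds macrophages, and the part of the adipocyte difference in the levels of the 10 genes was not tested. The summed level of the 10 genes was 259 to 320.3 CPM in Control, 277 to 391 CPM in 10CBD and 259 to 409.7 CPM in 20CBD.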

How the data were processed

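Poly(A) RNA of 12 kidneys was sequenced as paired reads, 4 mice a group. Reads were trimmed by the authors (Flexbar), aligned to the GRCm39 genome (STAR 2.7.5c) and counted per gene (HTSeq 1.99.2), and the deposited files hold these raw counts for 57180 Ensembl genes. The kit is directional. The strand setting, the annotation release and the use of molecular identifiers are not given in the sources used here, so overlapping genes and close copies may share reads. Totals ranged from 15417867 to 23532088 counts, and no pair of libraries was identical. Identifiers were matched to GENCODE vM39 (99.0% of them), which gave symbols, exon lengths and promoters.

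Groups were compared with edgeR 4.0.16 (R 4.3.3): filterByExpr (17163 genes kept), TMM, a quasi-likelihood fit of all 12 libraries with 1 mean per group, and Benjamini-Hochberg adjustment over all genes tested. Genes with an adjusted p under 0.1 were called, the threshold of the study. For single genes, log2 CPM (prior count 2) was compared by exact two-sided permutation tests over 70 arrangements of 4 against 4 mice. Correlations used 100000 permutations within groups. Those without the 2 farthest libraries kept the group means of all 12 libraries. Alternatives were DESeq2 1.42.0, limma-voom 3.58.1, RLE scaling, other filters, a fit to the compared groups alone, a block for the replicate number, mitochondrial share as a covariate, removal of mitochondrial and rRNA genes, an adjusted p under 0.05 and leaving out libraries. The fit was tested on simulated data. The 10 genes and the lists, 9 of immune genes and 9 of other cells, were chosen with earlier results of these data known. Named from the lists were genes called in any comparison or else the 3 with the largest mean CPM, and others named (C1qc, H2-Aa, Csf1, Il34, Cx3cr1, genes whose groups did not overlap and genes called by DESeq2) were chosen after their values were seen. Some genes that the rule names are not reported here. Same-numbered mice did not deviate together, so replicate numbers were not used as pairs. Counting error alone understates the error of low counts.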

Additional observations from a re-analysis of the deposited data

Results flagged for a closer look

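In a group of 4 libraries, 1 library stood far from the other 3, by Dixon's test at the 95% limit, for 11 of 111 combinations of gene and group, where chance gives about 1 in 20. Of the 10 genes, H2-Ab1 was far higher in 10CBD 1 (107.3 CPM) and Lyz2 in 20CBD 2 (17.42 CPM) than in the rest of the group. H2-Eb1, which varied with H2-Ab1, was far lower in Control 1 (58.16 CPM) than in the rest of Control. In 20CBD 3, a library with 5.54% mitochondrial counts, Cx3cr1, the fractalkine receptor of macrophages, reached 21.77 CPM, the leukocyte gene Hcls1 21.17 CPM and the T cell receptor gene Trac 1.679 CPM. The antibody gene Igkc was far higher in Control 1 (24.82 CPM) and in 10CBD 4 (28.47 CPM), and Ighm in 10CBD 4 (9.568 CPM). Within the Control group Cxcl12 was lowest in replicate 2 at 70.6 CPM, and within 20CBD Tgfb1 was highest in replicate 2 at 15.39 CPM.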

How the results depend on the processing

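Under 22 alternative settings, 12 of which left out 1 library each, 0 of the 862 values of the 10 genes that had an adjusted p passed 0.1 (3 values of Cd3e had none in DESeq2), and the lowest adjusted p was 0.170 (Cd74, 20CBD against Control, edgeR with mitochondrial share as a covariate). No analysis of only the groups compared was run for the mean of both doses, which needs all groups. Medians of the 10 genes over the settings that kept single libraries ran from -0.0074 to 0.056 (10CBD against Control), 0.015 to 0.12 (20CBD against Control), -0.018 to 0.10 (20CBD against 10CBD) and 0.019 to 0.052 (mean of both doses). Leaving out 1 library put these medians between -0.0018 and 0.11, 0.027 and 0.15, -0.10 (without 20CBD 3) and 0.12, and 0.017 and 0.092, in the same order.

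Genes called on the 9 immune lists were 1 with DESeq2 and 6 without a filter for 10CBD, beside 34 and 331 of all genes. For 20CBD they were 2 with DESeq2, 7 without a filter and 8 of 86 with the mitochondrial covariate. In the same order, 167, 416 and 1386 of all genes were called, the last of 17163 tested. Without the 4 libraries of low mitochondrial share they were 2 for 20CBD, beside 107 of all genes. Between the doses they were 2 without a filter, beside 256 of all genes. For the mean of both doses they were 3 with DESeq2, 5 without a filter and 6 of 86 with the covariate. Of all genes, 117, 393 and 276 were called there, the last of 17163 tested. Leaving out 1 library gave 0 to 1 immune genes for that mean (C3, without Control 3). The numbers of all genes tested with DESeq2, without a filter and without the 4 libraries are not given here. Immune and other counts under those settings therefore cannot be compared as shares. Over all genes, calls went from 5 to 34 with DESeq2, 331 without a filter, 15 with the covariate, 26 without the 4 libraries and 3 at an adjusted p under 0.05 for 10CBD, from 52 to 167, 416, 1386, 107 and 23 for 20CBD, from 24 to 117, 393, 276, 67 and 13 for the mean of both doses, and from 0 to 13, 256 and 62 with DESeq2, without a filter and with the covariate between the doses. Leaving out 1 library gave 2 to 8, 14 to 54, 8 to 35 and 0. The cause was not tested.

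Same-numbered libraries had correlations of deviations from the group means of -0.33 to 0.317 and 3 of 12 libraries correlated best with their own number. With the replicate number as a block, 0 of 10 genes were called in any comparison, calls over all genes for 20CBD fell from 52 to 27, and Adgre1 for the mean of both doses changed sign to -0.026.

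The log2 fold changes of the 10 genes, none called, changed sign in 27 values over settings that kept single libraries. For 10CBD against Control these were C1qa -0.0089 and C1qb -0.0059 without a filter, Ptprc 0.0060 with at least 10 counts in every library, 0.0029 with only the groups compared and 0.036 with the covariate, C1qa -0.16 and Lyz2 0.044 with the covariate, and Adgre1 0.14, C1qa -0.11, Cd74 -0.060 and Lyz2 0.29 without the 4 libraries. For 20CBD against Control they were Lyz2 0.0028 with at least 10 counts, and C1qa -0.051, C1qb -0.0050 and Lyz2 0.035 without the 4 libraries. Between the doses they were H2-Ab1 0.14 and Lyz2 -0.17 with the covariate, and C1qb -0.031 and Lyz2 -0.25 without the 4 libraries. For the mean of both doses they were Csf1r -0.0016 with DESeq2 and -0.015 without a filter, Adgre1 -0.042 with limma-voom, -0.0064 without a filter and -0.0042 with the covariate, and C1qa -0.083 and Lyz2 0.16 without the 4 libraries.

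Leaving out 1 library changed the sign of 25 of 40 log2 fold changes. For 10CBD against Control the ranges were Ptprc -0.071 to 0.091, Adgre1 -0.28 to 0.092, C1qa -0.18 to 0.21, C1qb -0.016 to 0.050, Cd74 -0.024 to 0.24 and Lyz2 -0.21 to 0.12. For 20CBD against Control they were Ptprc -0.24 to 0.0046, Cd68 -0.22 to 0.028, Adgre1 -0.11 to 0.23, Csf1r -0.14 to 0.011, C1qa -0.24 to 0.40, H2-Ab1 -0.0089 to 0.23 and Lyz2 -0.13 to 0.046. Between the doses they were Ptprc -0.24 to 0.0089, Adgre1 -0.032 to 0.38, C1qa -0.26 to 0.38, Cd74 -0.061 to 0.27, H2-Ab1 -0.18 to 0.12, Lyz2 -0.12 to 0.21 and Cd3e -0.35 to 0.13. For the mean of both doses they were Ptprc -0.12 to 0.0043, Adgre1 -0.092 to 0.12, Csf1r -0.056 to 0.099, C1qa -0.11 to 0.29 and Lyz2 -0.11 to 0.058.

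The correlation of Cd74 with H2-Ab1 stayed between 0.909 and 0.957 when 1 library was left out. C1qa with C1qb gave 0.600 (permutation p 0.0429) with group means kept and -0.66 (permutation p 0.0379) without 20CBD 1 and 3. Adgre1 with Csf1r gave 0.601 (permutation p 0.0209) without 10CBD 4 and 20CBD 1 and -0.033 to 0.562 without 1 library, the highest without 20CBD 1. Ptprc with Cd3e gave 0.377 to 0.707 without 1 library and passed 0.05 without Control 4 (0.648), 10CBD 3 (0.707) or 10CBD 4 (0.706). Counts of 4 to 15 per library limit Cd3e.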

Other observations

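Cx3cr1, the receptor for the chemokine CX3CL1 and a marker of resident macrophages and monocytes, was the gene of the macrophage list with the largest difference from Control, and was chosen here after its values were seen. It had 4.70, 5.77, 2.92 and 3.15 CPM in Control, 31.2, 3.497, 13.1 and 5.11 CPM in 10CBD, and 4.98, 6.47, 21.8 and 6.83 CPM in 20CBD. The 3 highest values all lay in libraries with under 10% mitochondrial counts, while the control library of that kind had the highest value of Control. Its log2 fold changes of 1.68 and 1.27 had adjusted p-values of 0.812 and 0.592 in edgeR. With mitochondrial share as a covariate the values for 10CBD and 20CBD were 1.00 and 1.56, with adjusted p-values of 0.494 and 0.0141 in edgeR. That setting called 1386 of all 17163 genes tested for 20CBD. Without the 4 libraries of low share the values for 10CBD and 20CBD were 0.25 and 0.75, with adjusted p-values of 0.985 and 0.2502 in edgeR. The part of the mitochondrial share in this difference was not tested further.

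Cxcr4, the receptor for CXCL12, had mean levels of 2.02 CPM in Control, 4.12 CPM in 10CBD and 3.05 CPM in 20CBD, with both CBD groups wholly above Control. Its log2 fold changes were 1.03 and 0.59, with adjusted p-values of 0.506 and 0.504 in edgeR, and DESeq2 gave an adjusted p of 0.0525 for 10CBD. Without the 4 libraries of low share they were 0.56 and 0.47. Ccl28, a chemokine of mucosal epithelia, had 3.05, 5.80 and 4.56 CPM, with log2 fold changes of 0.92 and 0.59. Il1b, an inflammatory cytokine, had 1.28, 0.459 and 0.810 CPM, with an adjusted p for 10CBD of 0.702 in edgeR. Cfb, a factor of the alternative complement pathway, had 17.2, 14.4 and 10.8 CPM, and for 20CBD against Control a log2 fold change of -0.67, with an adjusted p of 0.187 in edgeR and 0.0224 in DESeq2, and without those 4 libraries -0.78 and 0.0475 in edgeR.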
